A study of Mus musculus with 6 samples.

Results

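Autophagy genes were read in whole colons of R1ko mice, labelled as knockouts for the tumour necrosis factor receptor gene Tnfrsf1a, and of wild-type (WT) mice. The set holds 41 genes of the 30419 in the deposited table, taken by symbol: the core autophagy machinery, the cargo receptors, 1 transcription factor and 2 proteins of the lysosome membrane. It was assembled around Atg7, 1 transcript of which was already known to differ between these groups, so its members were chosen by a measured difference and the values of Atg7 are described without a test. The question put to the other 40 genes was whether their totals, their single transcripts or the make-up of their transcripts differed as well.

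The R1ko group consisted of 3 colons with the genotype Tnfrsf1a-/-, and the WT group of 3 colons with an intact gene. All mice were males aged 12 weeks, and the labels give the strain C57Bl/6J for both groups. No treatment is named, and the labels do not say whether the groups were littermates. The genotype label names no tissue or cell type to which the deletion is restricted.

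Autophagy encloses cytoplasm, damaged organelles or bacteria in a double membrane and delivers them to the lysosome for digestion. A kinase complex and a lipid kinase complex start the membrane, lipid carriers enlarge it, and a pair of ubiquitin-like conjugation reactions, both begun by ATG7, attach ATG8-type proteins to it. In the intestine the pathway is known for its work in Paneth and goblet cell secretion and in defence against invading bacteria.

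The values are TPM, transcript abundances normalised for length and scaled to 1 common total per library, so the read depth behind a value is unknown. Between 13697 and 14336 genes reached 1 TPM in R1ko libraries, and between 13697 and 14623 did in WT libraries. The full-length Tnfrsf1a transcript measured 23.5, 20.4 and 25.6 TPM in R1ko libraries 1, 2 and 3, against 67.6, 39.9 and 59.1 TPM in WT libraries 1, 2 and 3. It was lower in each R1ko library, without overlap, but not at 0. One WT library stood apart: transcripts with no gene held 27.4% of TPM in WT 2, against 1.86 to 7.23% in the R1ko libraries and 2.79 to 4.05% in the other WT libraries. A share of this size lowers the TPM of the other transcripts in that library, so values are also given after median-of-ratios scaling or without WT 2 where these differ. Where 3 values follow each other, they belong to replicates 1, 2 and 3. Epithelial markers summed to 7510 to 8075 TPM in R1ko and 5948 to 8201 TPM in WT, and smooth muscle markers to 6013 to 7187 TPM in R1ko and 5773 to 8238 TPM in WT, with each of the 8 and 6 markers above 1 TPM on average. Markers of other tissue were present too. Skeletal muscle markers summed to 1152 to 3040 TPM in R1ko and 188 to 3036 TPM in WT. Squamous and skin markers summed to 591 to 814 TPM in R1ko and 199 to 918 TPM in WT. The 6 adipocyte markers summed to 179 to 247 TPM in R1ko and 52.2 to 147.9 TPM in WT, without overlap, and none was at 0. B and plasma cell markers summed to 15.03 to 30.4 TPM in R1ko and 27.1 to 42.6 TPM in WT, and myeloid markers to 46.4 to 92.6 TPM in R1ko and 29.0 to 53.5 TPM in WT. The part of these tissues in the values below was not tested.

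Atg7 (ENSMUSG00000030314; mm10 chromosome 6, 114643097 to 114860614, plus strand) encodes the E1-like enzyme that activates both ATG12 and the ATG8 family. It lies 10.49 Mb from Tnfrsf1a on the same chromosome. GENCODE M21 lists 17 Atg7 transcripts. The principal one, ENSMUST00000032457, has 19 exons, 3761 bases and an open reading frame of 698 codons. The transcript around which the genes were assembled, ENSMUST00000182035 (114643131 to 114686219), has 8 exons and 758 bases. It is annotated as protein coding with its 3′ end not found, so the model stops inside the reading frame after 222 codons and has no stop codon. These codons make up 31.8% of the coding bases of the principal transcript. Exons 3 to 8 of ENSMUST00000182035 are identical to exons 2 to 7 of ENSMUST00000032457. What separates them at the 5′ end is a first exon that starts further downstream and a 53-base exon in the 5′ untranslated region (exon 2, 114672791 to 114672843). That exon is also found in the Atg7 transcripts ENSMUST00000182098, ENSMUST00000182902 and ENSMUST00000182771, and no exon of another gene overlaps it.

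The 3 stretches of coding sequence below are given on mm10 chromosome 6, plus strand, 5′ to 3′, to make plain what the short model contains and what it lacks. The first runs from the start codon, in capitals, to the end of exon 3 (114672993 to 114673140) and is the same in both transcripts. The second is the last exon of the short model (114686070 to 114686219), and the third is the exon that follows it in the principal transcript only (114695623 to 114695711).
Start of the Atg7 reading frame: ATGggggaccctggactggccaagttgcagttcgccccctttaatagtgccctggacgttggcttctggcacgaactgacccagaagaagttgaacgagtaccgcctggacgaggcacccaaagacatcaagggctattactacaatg
Last exon of ENSMUST00000182035: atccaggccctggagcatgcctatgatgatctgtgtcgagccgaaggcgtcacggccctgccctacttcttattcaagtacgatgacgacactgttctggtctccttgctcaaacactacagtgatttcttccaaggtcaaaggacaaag
Next exon of ENSMUST00000032457: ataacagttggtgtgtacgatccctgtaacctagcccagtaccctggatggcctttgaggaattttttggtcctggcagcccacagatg
The models share most of their length, so the split of reads between them rests on few bases. Of the 728 windows of 31 bases in ENSMUST00000182035, 656 (90.1%) also occur in ENSMUST00000032457. The remaining 72 cover the 5′ end and the 53-base exon, and 53 of these also occur in ENSMUST00000182098. Only 19 windows, those starting at bases 1 to 19, occur in no other transcript among the 141767 searched. No window occurs in a transcript of another gene.

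**Figure D1:**
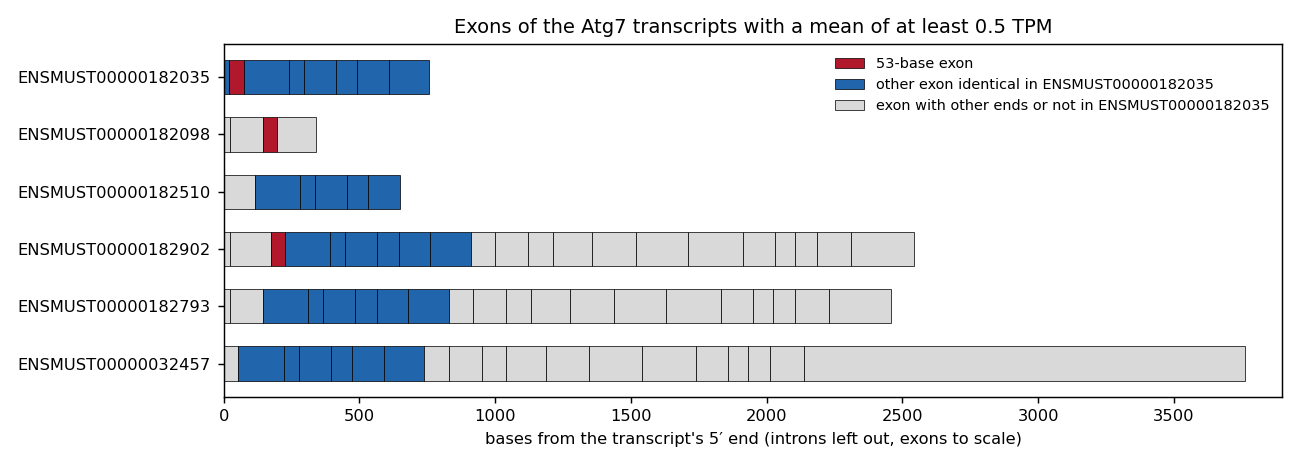
Exon structure of the 6 Atg7 transcripts with a mean of at least 0.5 TPM, drawn to scale in bases from each 5′ end with introns left out. Red marks the 53-base exon, blue the other exons identical in ENSMUST00000182035 and grey the rest; the short model ends where the longer transcripts go on.

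Of the Atg7 transcripts, ENSMUST00000182035 differed most in TPM between the groups. It measured 7.63, 8.30 and 9.16 TPM in R1ko libraries, against 1.26, 0.781 and 0.973 TPM in WT libraries. The lowest R1ko value lay far above the highest WT value, and the means were 8.36 ± 0.767 TPM in R1ko and 1.01 ± 0.243 TPM in WT (SD, n = 3 each), a ratio of 8.31. On a log2(TPM + 0.5) scale, where low values appear to change less than they do, its difference was 2.57 (SE 0.25). It made up 30.3, 34.8 and 35.1% of the Atg7 total in R1ko libraries, against 7.07, 5.55 and 5.05% in WT libraries. The short model was thus about level with the principal transcript in R1ko colons and a minor form in WT colons.

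The principal transcript ENSMUST00000032457 measured 9.19, 9.04 and 9.95 TPM in R1ko libraries, against 9.18, 7.59 and 9.39 TPM in WT libraries. Those ranges overlapped, with means of 9.39 ± 0.491 TPM in R1ko and 8.72 ± 0.987 TPM in WT. Its share of the gene was 37.5 ± 0.907% in R1ko and 51.3 ± 2.58% in WT. ENSMUST00000182793, a full-length coding form, measured 4.30, 4.58 and 3.81 TPM in R1ko libraries, against 4.42, 3.65 and 5.70 TPM in WT libraries, again with overlap. Together, the transcripts that reach from the first to the last exon of the gene had 14.4 ± 0.494 TPM in R1ko and 14.8 ± 2.35 TPM in WT. Transcripts that span the whole gene thus did not separate the groups.

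A further 3 Atg7 transcripts averaged at least 0.5 TPM. ENSMUST00000182510, a second model with its 3′ end not found but without the 53-base exon, had 0.604, 1.24 and 1.24 TPM in R1ko libraries, against 0.781, 0.851 and 0.969 TPM in WT libraries. ENSMUST00000182902, which is full-length and does contain that exon, had 1.15, 0.271 and 0.763 TPM in R1ko libraries, against 0.674, 0.461 and 1.72 TPM in WT libraries. Neither separated the groups. ENSMUST00000182098, a model of 4 exons that shares the 53-base exon, had 2.02, 0.311 and 1.11 TPM in R1ko libraries, against 0, 0 and 0.344 TPM in WT libraries, and its lowest R1ko value was under its highest WT value. ENSMUST00000183165 was listed at 0 in each R1ko library, against 0.536 and 0.499 TPM in WT 1 and WT 2 and a value near 0 in WT 3. Summed, the transcripts with the 53-base exon had 10.8, 8.88 and 11.0 TPM in R1ko libraries, against 1.94, 1.24 and 3.03 TPM in WT libraries, without overlap. This sum includes ENSMUST00000182035, which held 8.36 of its mean of 10.2 TPM in R1ko, so the lack of overlap is not a separate result. ENSMUST00000182902 and ENSMUST00000182098, which also contain the exon, each overlapped between the groups.

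**Figure D2:**
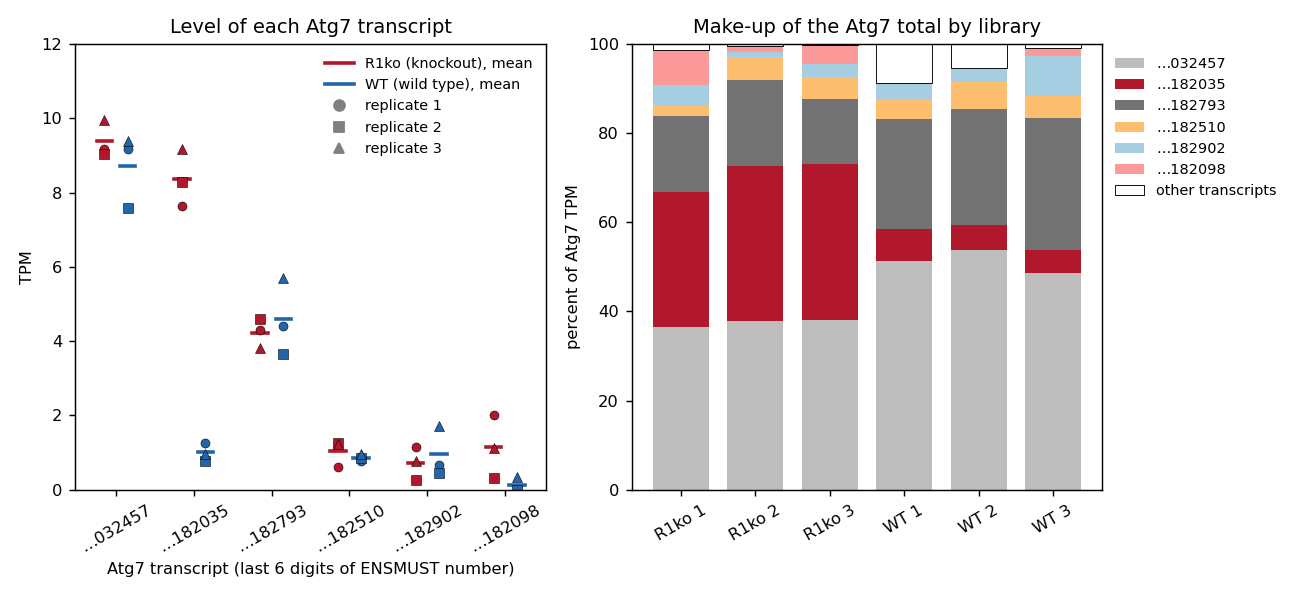
Left, TPM of each Atg7 transcript with a mean of at least 0.5 TPM, 1 point per library and a bar at the group mean; right, percent of the Atg7 total in each library. ENSMUST00000182035 lies between 7.63 and 9.16 TPM in R1ko and between 0.781 and 1.26 TPM in WT, while the TPM of the other transcripts overlap between the groups; the percentages of ENSMUST00000032457 and ENSMUST00000182793 are lower in R1ko, without overlap.

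The Atg7 total measured 25.2, 23.9 and 26.1 TPM in R1ko libraries, against 17.9, 14.1 and 19.3 TPM in WT libraries. All R1ko values were above all WT values, with means of 25.1 ± 1.14 TPM in R1ko and 17.1 ± 2.69 TPM in WT and a log2 difference of 0.55 (SE 0.21). After median-of-ratios scaling the difference was 0.52 (SE 0.08), and without WT 2 it was 0.42. Without ENSMUST00000182035 the remaining Atg7 transcripts summed to 17.6, 15.6 and 17.0 TPM in R1ko libraries, against 16.6, 13.3 and 18.3 TPM in WT libraries. These values overlapped, and the log2 difference was 0.06. Most of the difference in the Atg7 total thus lay in the TPM assigned to the short model.

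None of the other 40 autophagy genes had a total that passed the test between R1ko and WT colons. Each was tested in limma on log2(TPM + 0.5), with p-values adjusted by the Benjamini-Hochberg method over 14284 genes and a threshold of 0.05. There were 0 of the 40 at the adjusted threshold, with 0 at an unadjusted p under 0.05 and a smallest adjusted p of 1.0 in limma. The background was 0.266% of all genes called, 38 genes, and 3.7% at an unadjusted p under 0.05. After scaling, again none passed, with a smallest adjusted p of 0.404 in limma, 1 gene (Map1lc3b) at an unadjusted p under 0.05, and a background of 0.042% called and 11.4% at the unadjusted threshold. Log2 fold changes of the 40 lay between −0.31 and 0.27, or between −0.34 and 0.24 after scaling. In whole colon, a lower number of cells that express a gene and less of its RNA per cell cannot be told apart.

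**Figure D3:**
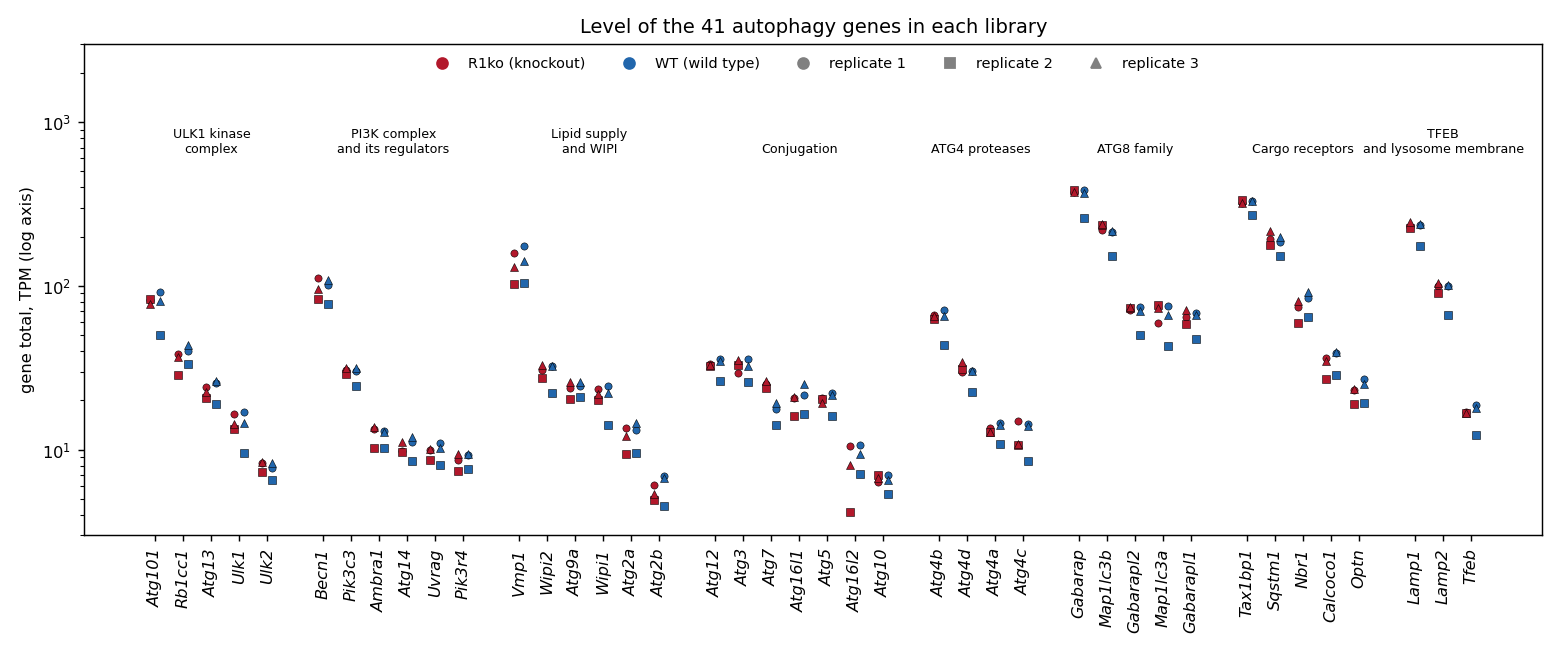
Gene totals in TPM on a log axis for the 41 autophagy genes, ordered by role, with 1 point per library, R1ko to the left of WT. Mean levels span from 5.76 TPM for Atg2b to 357 TPM for Gabarap, and Atg7 and Map1lc3b are the genes whose groups do not overlap.

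The ULK1 kinase complex responds to nutrient signals and starts autophagy. Its kinase Ulk1 averaged 14.8 ± 1.66 TPM in R1ko and 13.7 ± 3.82 TPM in WT (SD, n = 3 each, as for all means that follow), and the related kinase Ulk2 averaged 8.01 ± 0.557 TPM in R1ko and 7.53 ± 0.899 TPM in WT. For Atg13, the adaptor that links the kinase to its scaffold, the means were 22.5 ± 1.72 TPM in R1ko and 23.6 ± 4.11 TPM in WT. Atg101, which stabilises Atg13, had 81.0 ± 3.03 TPM in R1ko and 74.3 ± 21.3 TPM in WT. The scaffold Rb1cc1, also called FIP200, had 34.6 ± 5.39 TPM in R1ko and 39.0 ± 5.24 TPM in WT and the lowest log2 fold change of the complex, −0.17 (SE 0.21). Of the 5 genes, 3 had a positive and 2 a negative log2 fold change, and 3 were positive after scaling.

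The class III phosphatidylinositol 3-kinase complex makes the lipid mark of the growing membrane. Its catalytic subunit Pik3c3 averaged 30.5 ± 1.30 TPM in R1ko and 28.9 ± 3.91 TPM in WT, and its regulatory subunit Pik3r4 8.50 ± 0.980 TPM in R1ko and 8.79 ± 1.02 TPM in WT. Becn1, the Beclin subunit that many regulators bind, averaged 97.2 ± 14.1 TPM in R1ko and 95.6 ± 15.9 TPM in WT. Atg14, which directs the complex to autophagosome formation, had 10.2 ± 0.826 TPM in R1ko and 10.6 ± 1.84 TPM in WT. Uvrag, the subunit that takes the place of Atg14 in the endosomal form, had 9.57 ± 0.812 TPM in R1ko and 9.81 ± 1.51 TPM in WT. Ambra1, a Beclin-binding activator, had 12.5 ± 1.98 TPM in R1ko and 12.0 ± 1.56 TPM in WT. No log2 fold change of these 6 genes left the range from −0.05 to 0.09.

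Among the genes that carry and recognise lipid, Atg9a, a membrane protein of the seed vesicles, averaged 23.3 ± 2.74 TPM in R1ko and 23.7 ± 2.48 TPM in WT. Atg2a, which encodes a lipid transfer protein, averaged 11.7 ± 2.07 TPM in R1ko and 12.4 ± 2.53 TPM in WT. Its homologue Atg2b averaged 5.45 ± 0.579 TPM in R1ko and 6.07 ± 1.35 TPM in WT. Atg2b was also the member with the lowest level, at 5.76 TPM over all libraries. Wipi1 and Wipi2 encode proteins that bind the lipid mark, and Wipi2 recruits the conjugation machinery. Wipi1 had 21.8 ± 1.67 TPM in R1ko and 20.3 ± 5.46 TPM in WT, and Wipi2 had 30.4 ± 2.90 TPM in R1ko and 29.0 ± 5.84 TPM in WT. Vmp1, a membrane protein of the endoplasmic reticulum needed for autophagosome formation, had 131 ± 28.7 TPM in R1ko and 140.4 ± 35.1 TPM in WT. Wipi2 varied least of the 41 genes across libraries after scaling, with a coefficient of variation of 3.44%.

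The conjugation genes are the nearest partners of Atg7. Atg3 and Atg10 are the E2-like enzymes to which ATG7 hands its substrates. Atg3 averaged 32.6 ± 2.94 TPM in R1ko and 31.4 ± 5.15 TPM in WT, and Atg10 averaged 6.72 ± 0.322 TPM in R1ko and 6.31 ± 0.835 TPM in WT. Atg12, the ubiquitin-like protein that ATG7 activates, averaged 33.0 ± 0.595 TPM in R1ko and 32.2 ± 5.21 TPM in WT, and Atg5, the protein to which it is joined, 20.1 ± 0.695 TPM in R1ko and 19.97 ± 3.39 TPM in WT. Atg16l1, which brings this conjugate to the membrane, had 19.3 ± 2.82 TPM in R1ko and 21.1 ± 4.34 TPM in WT. Its homologue Atg16l2 had 10.5, 4.19 and 8.10 TPM in R1ko libraries, against 10.8, 7.07 and 9.37 TPM in WT libraries. R1ko 2 was the lowest library for Atg16l2, the groups overlapped, and the log2 fold change was −0.31 (SE 0.27), the lowest of all 41 genes. Without R1ko 2 it was 0.05. The log2 fold changes of the 6 partners after scaling ranged from −0.34 to 0.06. The Atg7 total, at 0.52, holds the transcript chosen for its difference, so the partners cannot be compared with it on equal terms.

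The ATG4 proteases trim ATG8-type proteins before conjugation and release them afterwards. Atg4a averaged 13.1 ± 0.475 TPM in R1ko and 13.2 ± 2.09 TPM in WT, and Atg4c 12.1 ± 2.42 TPM in R1ko and 12.3 ± 3.24 TPM in WT. Atg4b, the most abundant of the 4, averaged 65.0 ± 1.56 TPM in R1ko and 60.3 ± 14.9 TPM in WT. Atg4d had 30.1, 31.1 and 34.2 TPM in R1ko libraries, against 30.1, 22.5 and 30.1 TPM in WT libraries, with a log2 fold change of 0.21 (SE 0.21). WT 1 and WT 3 lay close to the lowest R1ko value of Atg4d, and WT 2 was its lowest library. After scaling Atg4d was at 28.3, 33.9 and 32.1 in R1ko libraries, against 26.6, 28.7 and 27.4 in WT libraries. WT 1 was then its lowest library, the groups still overlapped, and the log2 fold change was 0.18 (SE 0.09).

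The ATG8 family are the proteins that the conjugation reaction attaches to the membrane, and their summed TPM was the highest of the roles described here. Gabarap measured 375, 383 and 377 TPM in R1ko libraries, against 383, 258 and 367 TPM in WT libraries. Map1lc3b, which encodes LC3B, the usual marker of autophagosomes, measured 219.6, 235 and 239 TPM in R1ko libraries, against 213, 152 and 216 TPM in WT libraries. All 3 R1ko values of Map1lc3b were above all 3 WT values, with means of 231 ± 10.1 TPM in R1ko and 193 ± 36.2 TPM in WT and a log2 fold change of 0.27 (SE 0.20). After scaling it was 0.24, with an unadjusted p of 0.0281 and an adjusted p of 0.404 in limma, and without WT 2 it was 0.11. Gabarapl2 measured 71.4, 73.6 and 74.7 TPM in R1ko libraries, against 73.9, 50.0 and 70.5 TPM in WT libraries. Map1lc3a, which encodes LC3A, measured 59.8, 76.6 and 73.7 TPM in R1ko libraries, against 75.3, 43.1 and 66.5 TPM in WT libraries. Gabarapl1, which lies 4.17 Mb from Tnfrsf1a and so nearer to it than Atg7, measured 64.6, 58.4 and 71.2 TPM in R1ko libraries, against 68.2, 47.4 and 66.5 TPM in WT libraries. In Gabarap, Gabarapl2, Map1lc3a and Gabarapl1 the WT 2 value was the lowest and the other WT libraries lay within or close to the R1ko range. The summed family measured 791, 827 and 835 TPM in R1ko libraries, against 813, 550.3 and 787 TPM in WT libraries. All 5 log2 fold changes were positive, from 0.11 to 0.27, and also after scaling, from 0.08 to 0.24. Without WT 2, in TPM that were not scaled, Map1lc3a was at −0.02 and Gabarapl1 at −0.06, beside a median of −0.13 over all genes. Scaled values of Map1lc3a were 56.2, 83.5 and 69.2 in R1ko libraries, against 66.6, 54.9 and 60.6 in WT libraries. For Gabarapl1 they were 60.8, 63.6 and 66.8 in R1ko libraries, against 60.3, 60.3 and 60.5 in WT libraries.

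Cargo receptors bind ubiquitin or other tags on cargo and an ATG8-type protein at once. Tax1bp1, a receptor for ubiquitinated cargo, measured 323, 334 and 319 TPM in R1ko libraries, against 330.3, 271 and 329 TPM in WT libraries. Sqstm1, which encodes p62, measured 194, 177 and 216 TPM in R1ko libraries, against 185, 152 and 198 TPM in WT libraries. Both overlapped between the groups, with log2 fold changes of 0.07 (SE 0.19) and 0.14 (SE 0.19). Nbr1, a receptor related to p62, averaged 71.7 ± 11.0 TPM in R1ko and 80.6 ± 14.2 TPM in WT. Optn, which encodes optineurin, averaged 21.8 ± 2.47 TPM in R1ko and 23.8 ± 3.96 TPM in WT. Calcoco1, a receptor for endoplasmic reticulum, averaged 32.7 ± 4.95 TPM in R1ko and 35.7 ± 6.11 TPM in WT. These 3 genes had negative log2 fold changes, from −0.16 to −0.11, and none passed the test.

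Tfeb encodes the transcription factor that switches on autophagy and lysosome genes, and it averaged 16.9 ± 0.180 TPM in R1ko and 16.3 ± 3.51 TPM in WT. Lamp1, a main protein of the lysosome membrane, measured 228, 225 and 244 TPM in R1ko libraries, against 235, 175 and 239 TPM in WT libraries. WT 2 was again lowest, and the other WT libraries lay inside the R1ko range of Lamp1. Lamp2, its close relative with a role in fusion and in chaperone-mediated autophagy, averaged 98.3 ± 7.17 TPM in R1ko and 89.2 ± 19.7 TPM in WT.

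**Figure D4:**
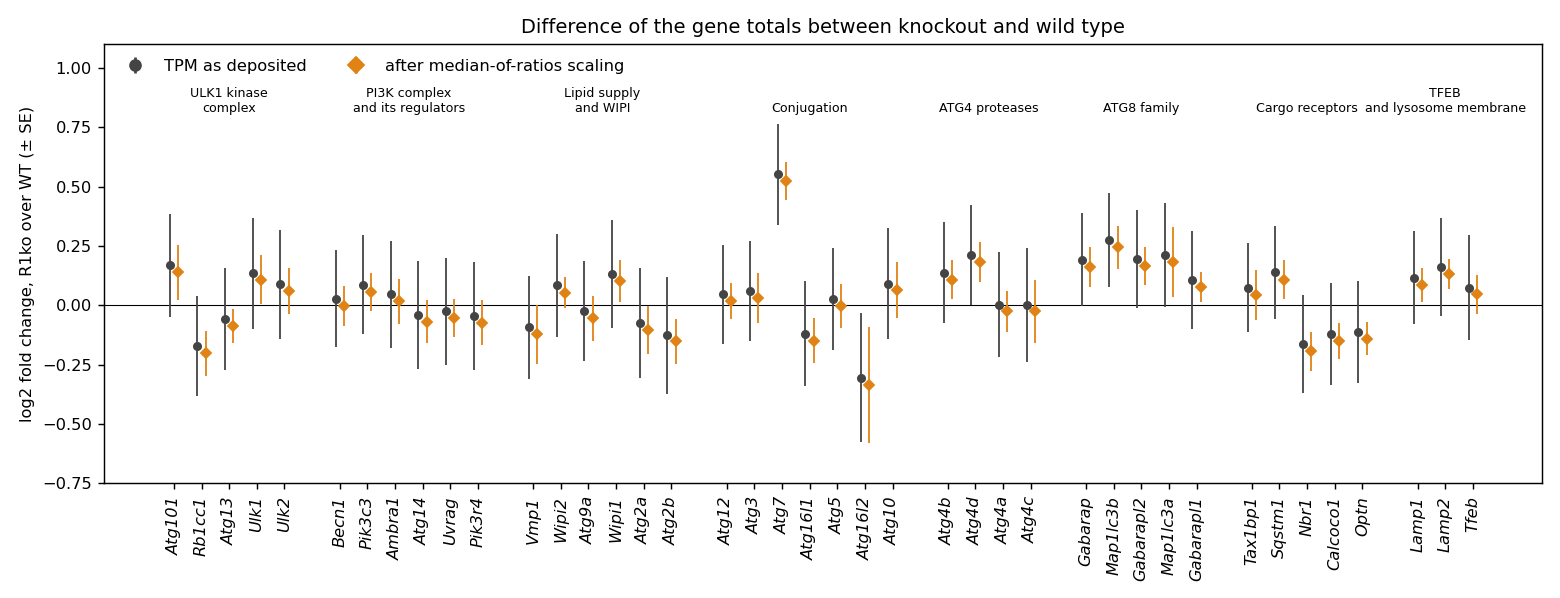
Log2 fold change of each gene total, R1ko over WT, with its standard error, from TPM as deposited (grey) and after median-of-ratios scaling (orange). Atg7 stands at 0.55 and 0.52, and the other 40 genes lie between −0.34 and 0.27; the bars are narrower after scaling.

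Across the 41 genes, 27 log2 fold changes were positive and 14 negative, beside 55.7% positive over all genes tested. The median was 0.06, beside 0.03 over all genes. After scaling 23 were positive, beside 49.3% of all genes, with medians of 0.03 for the autophagy genes and 0.00 for all genes. Without WT 2 there were 6 positive, beside 20.5% of all genes, with medians of −0.10 for the autophagy genes and −0.13 for all genes. WT 2 was the lowest library for 30 of the 41 genes, as it was for 67.9% of all genes, and R1ko 2 was the lowest for the other 11. After scaling WT 2 was lowest for 10 genes, R1ko 2 for 10 and WT 1 for 11. In TPM as deposited, 2 of the genes (Atg7 and Map1lc3b) did not overlap between the groups, beside 4.98% of all genes. After scaling 9 did not overlap, beside 18.5% of all genes. These were Atg7, Map1lc3b, Gabarap, Gabarapl1, Gabarapl2 and Lamp2, which were higher in R1ko, and Atg2b, Optn and Calcoco1, which were lower. Atg7 is included in all counts and medians of this paragraph. It was chosen through a measured difference, so its part in them is no result. The coefficient of variation over the 6 scaled libraries had a median of 7.45% and reached 20.6% for Atg7 and 23.8% for Atg16l2, the highest.

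The same question was put to single transcripts. The table lists 286 transcripts of the 41 genes, of which 43 had no value and 119 reached the mean of 1 TPM needed for the test. Without the 3 of Atg7, 116 transcripts of the other 40 genes were tested, and 0 passed, the smallest limma p being 0.545 after adjustment over 31056 transcripts. The background was 0.0419% of transcripts called. At an unadjusted p under 0.05 there were 6 of the 116, or 5.17%, beside 5.02% of all transcripts. After scaling 0 passed, with a smallest adjusted p of 0.248 in limma and a background of 0.0451% called. There 18 of the 116, or 15.5%, had an unadjusted p under 0.05, beside 11.2% of all transcripts. Their log2 fold changes lay between −1.09 and 0.67. The 2.57 of the Atg7 transcript is no equal comparison, since that transcript was chosen for its difference.

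Isoform shares were tested as the log2 ratio of a transcript to the other transcripts of its gene, a measure that the scaling of a library does not touch apart from the pseudocount. Here 103 transcripts of 27 genes other than Atg7 could be tested, and 0 passed, the smallest limma p being 0.375 after adjustment over 24586 ratios, beside a background of 0.0285% called. At an unadjusted p under 0.05 there were 13, or 12.6%, beside 10.7% of all transcripts. Ratios of the same gene depend on each other, so these are not separate observations. The changes of the log2 ratio lay between −1.08 and 1.09. That of ENSMUST00000182035, which was chosen for its difference, was 2.50 (SE 0.20).

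The 8 transcripts named by the smallest unadjusted p had no adjusted p under the threshold. Because they were picked this way, a lack of overlap in their levels or shares follows largely from the choice. The share of all transcripts without overlap was not counted. Calcoco1 ENSMUST00000166943, a retained-intron form that is not annotated as coding, measured 2.64, 1.52 and 1.69 TPM in R1ko libraries, against 5.10, 4.14 and 4.66 TPM in WT libraries. The groups did not overlap, and its share of Calcoco1 was 5.92 ± 1.25% in R1ko and 13.1 ± 1.31% in WT. Its log2 fold change of −1.09 (SE 0.27) gave 0.545 as the adjusted p in limma. The coding form ENSMUST00000023818 of the same gene overlapped in level, with 27.5 ± 2.98 TPM in R1ko and 26.2 ± 4.64 TPM in WT. Its share was 79.5, 89.1 and 85.0% in R1ko libraries, against 73.1, 72.8 and 74.1% in WT libraries, without overlap, and the change of its log2 ratio was 0.96 (SE 0.25) and its adjusted p in limma 0.425. Shares within a gene depend on each other, so this and the lower share of ENSMUST00000166943 are not separate results.

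Wipi2 ENSMUST00000110778, a coding form, measured 10.3, 10.8 and 11.4 TPM in R1ko libraries, against 7.79, 5.94 and 8.69 TPM in WT libraries. Its share of Wipi2 was 35.8 ± 3.20% in R1ko and 25.9 ± 1.48% in WT, without overlap, in a gene whose total overlapped between the groups. Tax1bp1 ENSMUST00000149588, a coding model of 630 bases with its 3′ end not found, measured 52.8, 51.6 and 42.7 TPM in R1ko libraries, against 31.2, 31.9 and 42.3 TPM in WT libraries. Its R1ko values were all above its WT values, but R1ko 3 and WT 3 were nearly equal. Its log2 fold change of 0.48 (SE 0.19) had an adjusted p of 0.963 in limma.

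The 4 other forms are retained introns. Map1lc3b ENSMUST00000180548 measured 4.04, 2.06 and 4.04 TPM in R1ko libraries, against 5.99, 4.91 and 7.18 TPM in WT libraries, a share of 1.47 ± 0.520% in R1ko and 3.13 ± 0.271% in WT. Sqstm1 ENSMUST00000154805 measured 2.43, 1.52 and 1.74 TPM in R1ko libraries, against 3.26, 2.73 and 3.79 TPM in WT libraries. Nbr1 ENSMUST00000172744 measured 2.12, 1.05 and 1.67 TPM in R1ko libraries, against 3.19, 2.65 and 2.63 TPM in WT libraries. These 3 did not overlap between the groups, which follows largely from their choice by a small p. Atg4b ENSMUST00000186124 measured 1.02, 0.835 and 1.88 TPM in R1ko libraries, against 4.19, 1.70 and 2.01 TPM in WT libraries, which overlapped in level although its shares of 1.91 ± 0.848% in R1ko and 4.27 ± 1.43% in WT did not.

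Retained-intron forms of the autophagy genes were then counted as 1 class, a grouping chosen after these values were seen and given without a test. Of 26 tested retained-intron transcripts from 14 of the genes, 25 had a negative log2 fold change, with a median of −0.48. Over all genes, 83.0% of 4803 such transcripts were negative, with a median of −0.34. Coding transcripts of the 40 genes other than Atg7, 68 in number, had 19 negative values and a median of 0.09, beside 40.1% negative and a median of 0.05 over all 20977. Without WT 2 the retained-intron counts were 26 of 27, with a median of −0.63, beside 90.01% negative and a median of −0.53 over all genes. The coding transcripts then became mostly negative, with 46 of 68 negative and a median of −0.06, beside 70.9% negative and a median of −0.10 over all genes. Retained-intron forms held 4.39, 2.44 and 3.91% of the TPM of the 40 genes other than Atg7 in R1ko libraries, against 5.42, 5.59 and 5.56% in WT libraries. Over all genes they held 3.46, 2.44 and 3.31% in R1ko libraries, against 3.91, 3.56 and 3.98% in WT libraries. The WT libraries were thus all above the R1ko libraries in both, and R1ko 2 was the lowest library. The part of this library-wide difference in the transcripts named above was not tested.

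**Figure D5:**
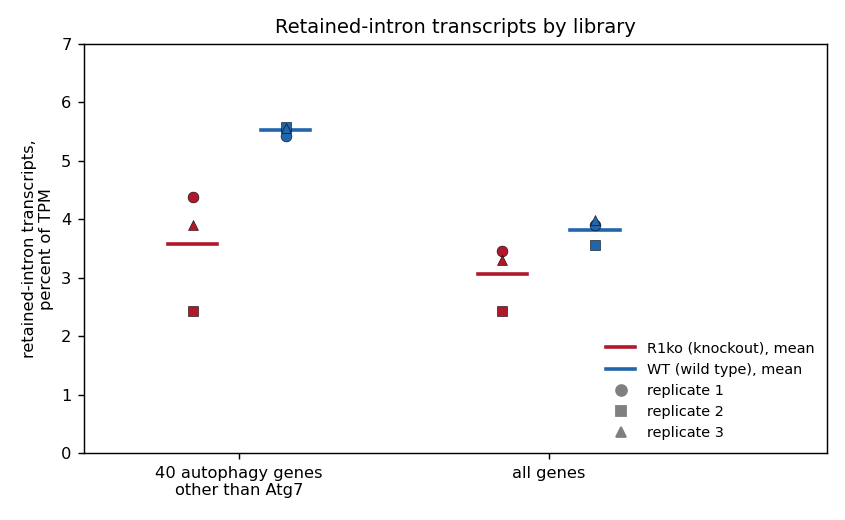
Percent of TPM assigned to retained-intron transcripts in each library, for the 40 autophagy genes other than Atg7 and for all genes, with a bar at each group mean. R1ko libraries lie between 2.44 and 4.39% for the autophagy genes and WT libraries between 5.42 and 5.59%.

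Lists of genes that work beside these 41 were read in the same fit. Of 34 symbols listed for further autophagy machinery, 29 were found in the deposited values. These 29 genes were tested and 0 passed in either direction, with a median log2 fold change of 0.04. The genes with the smallest p among them were Vps16, a subunit of the complexes that tether autophagosomes to lysosomes, with 42.0 ± 9.70 TPM in R1ko and 57.0 ± 10.8 TPM in WT, and Vamp8, a protein of membrane fusion, with 112 ± 6.63 TPM in R1ko and 101 ± 17.2 TPM in WT. Of 39 genes of the lysosome, many of them known targets of Tfeb, all were tested and 0 passed, with a median of 0.09. Atp6ap1, an accessory subunit of the proton pump, had 160.5 ± 15.7 TPM in R1ko and 132 ± 22.4 TPM in WT, without overlap. Over all genes 4.98% of totals did not overlap, and the genes named from these lists were picked by the smallest p. Of 35 genes of mTORC1 and nutrient sensing, all were tested and 0 passed, with a median of 0.06. There the smallest p belonged to Tsc1, a brake on mTORC1, with 7.51 ± 1.18 TPM in R1ko and 9.57 ± 1.44 TPM in WT, without overlap, and to Nprl3, a part of its amino acid control, with 13.1 ± 2.07 TPM in R1ko and 16.0 ± 2.62 TPM in WT. Of 22 symbols listed for receptors of mitophagy and other selective forms, 20 were found in the deposited values. Of these, 19 were tested and 0 passed, with a median of 0.08. Fundc1, a receptor on mitochondria, had 24.6 ± 0.908 TPM in R1ko and 20.02 ± 4.24 TPM in WT, and Rtn3, a receptor on the endoplasmic reticulum, 127 ± 5.75 TPM in R1ko and 111 ± 22.0 TPM in WT. At an unadjusted p under 0.05 in limma the 4 lists held 0 genes in TPM as deposited, and 1 of 29, 5 of 39, 4 of 35 and 1 of 19 after scaling, in the order given, beside 11.4% of all genes, with 0 past the adjusted threshold. Positive log2 fold changes numbered 19 of 29, 32 of 39, 21 of 35 and 14 of 19, beside 55.7% of all genes, and 15, 30, 19 and 13 after scaling, beside 49.3%. Without WT 2 the 4 medians were −0.10, −0.06, −0.09 and −0.07, beside −0.13 over all genes.

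Promoters of the genes were searched for the motif that TFEB binds. RefSeq promoter windows of 300 bases around the gene start, on GRCm38.p6, were at hand for 35 of the 41 genes, 43 windows in all. The core CACGTG, which reads the same on both strands, occurred in 5 of these 43 (11.6%), those of Atg3, Atg5, Atg7, Atg14 and Lamp1, and in 7.15% of all 32851 windows. The longer TCACGTGA, also the same on both strands and holding the core, occurred in 1 of the 43 (2.33%), that of Atg3, and in 0.974% of all. These are matches of letters only.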

How the data were processed

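RNA of 6 whole colons was sequenced, 3 R1ko and 3 WT, with groups taken from the labels. Per the labels' protocols, a PureLink kit was used for extraction and a SMARTer low-input kit for libraries of polyadenylated RNA. The authors deposited 1 table with a signal per transcript in TPM; per the submitters' processing notes, the tools were kallisto 0.43.1 and sleuth, and mm10 was the build. The use of strand was not given in the sources read here. Kallisto divides reads shared between transcripts by an estimate, so values of overlapping isoforms are uncertain.

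From 132639 lines, 1433 of them exact repeats, 131206 transcripts were read, each once. Left out were 43008 without a value and 1380 without a gene. TPM were summed per gene. Gene totals, transcripts and isoform ratios with a mean of at least 1 TPM were tested as log2 values with a pseudocount of 0.5 in limma 3.58.1 (R 4.3.3; eBayes with trend) over the whole table, with Benjamini-Hochberg adjustment and a threshold of 0.05. The isoform ratio was the transcript over the other transcripts of its gene, which also needed 1 TPM. The fits were tested on simulated data. Exon structures and sequences come from GENCODE M21 on mm10, which need not be the set behind the deposited values, and promoters from RefSeq on GRCm38.p6.

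The 41 genes and the related lists were chosen with earlier results of these data known. Values in every library are given for Atg7 and its transcripts of at least 0.5 TPM, for the 6 genes, 6 transcripts and 6 isoform ratios with the smallest unadjusted p, for the 5 genes with the highest mean and for genes within 20 Mb of Tnfrsf1a, and up to 2 genes are named from each related list, 1 gene of which is not reported here. Alternatives were pseudocounts of 0.1 and 1, quantile normalization, median-of-ratios scaling, a filter at 5 TPM or none, a fit without the variance trend, the replicate number as a block and each library left out in turn. Separate mice per group are given by the design text, so each p-value sets a difference against the spread between libraries of separate mice. In TPM as deposited that spread includes the lower values of WT 2. The number of reads behind a TPM value is unknown, and no counting interval is given.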

Additional observations from a re-analysis of the deposited data

How the results depend on the processing

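The counts of autophagy gene totals other than Atg7, and of transcripts and isoform ratios of genes other than Atg7, past the threshold were 0 under each alternative that could be fitted. The numbers called over the whole table, by contrast, moved. Gene totals called were 38 in TPM as deposited, 142 with a filter at 5 TPM, 6 after median-of-ratios scaling, 7 after quantile normalization, 2 without a filter, and 20 to 298 with 1 library left out, the lowest without WT 2. Transcripts called were 13 as reported, 23 at 5 TPM, 1 without a filter, 7 with a pseudocount of 0.1, and 1 to 61 with 1 library left out, the lowest again without WT 2. Isoform ratios called were 7 as reported and 0 to 3 with 1 library left out. With the replicate number as a block, 71 gene totals, 1 transcript and 0 isoform ratios were called in the whole table. Same-numbered R1ko and WT libraries had correlations of their deviations of 0.05, 0.13 and 0.18. R1ko 1 correlated better with WT 3 (0.10) than with WT 1, while R1ko 2 and R1ko 3 each correlated best with their same-numbered WT library. Deviations within a group depend on each other, so these few values cannot decide whether same-numbered samples were paired. The cause of the shifts in the numbers called was not tested.

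The log2 fold change of the Atg7 transcript was 2.95 with a pseudocount of 0.1 and 2.23 with 1, against 2.57 as reported. Its log2 ratio change was 2.89 and 2.16, against 2.50. With 1 library left out these lay between 2.46 and 2.69, and between 2.39 and 2.60. With a filter at 5 TPM the transcript could not be fitted, since its mean was 4.68 TPM. Without WT 2, 21 of the 27 positive autophagy totals turned negative, none of the 14 negative ones turned positive, and the median was −0.10, against 0.06. The whole table moved likewise. Over all genes 20.5% of log2 fold changes were then positive, against 55.7% as deposited, and the median was −0.13, against 0.03. Among the totals with values in every library, directions reversed in 7 cases over all alternatives. After quantile normalization the log2 fold change was −0.0557 for Tax1bp1 and −0.0311 for Lamp1. With 1 library left out it ranged from −0.0232 to 0.38 for Map1lc3a, from −0.0196 to 0.12 for Tax1bp1, from −0.0279 to 0.19 for Lamp1 and from −0.0611 to 0.20 for Gabarapl1, each lowest and negative without WT 2. For Atg16l2 it ranged from −0.57 to 0.0455, positive without R1ko 2. Depth could not be judged from TPM, 3 mice per group limit what can be called, and isoform values rest on the annotation used.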
